A study of Mus musculus with 34 samples.

Results

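The cytosolic ribosome is built from ribosomal RNAs and a fixed set of ribosomal proteins, and the genes for those proteins were followed here in mouse left ventricle (LV) after myocardial infarction (MI). The members were the rows whose gene symbol was Rpl or Rps followed by a number, with at most 1 letter and a further number after it, together with Rplp0, Rplp1, Rplp2 and Rpsa. Kinases of the Rps6k family, genes marked as pseudogenes and rows with a mean under 1 CPM (read counts scaled to a common library size) were left out. There were 84 such genes, of which 83 were listed in the table of 10 libraries and 84 in the table of 24 libraries. The filter was passed by 82 in each, 33 of the small and 49 of the large subunit, among 12487 and 12555 genes tested.

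All libraries came from the LV of CFW mice, an outbred strain. In the 10-library table, 3 sham, 3 MI 4 h and 4 MI 24 h libraries had received no injection, and for the sham libraries the labels give no operation and no time. In the 24-library table, 2 sham libraries were taken 4 h after a sham operation, and the other groups were collected after MI and an injection of modified mRNA (modRNA) for Luc or AC into the border zone, made right after the ligation. These were Luc 4 h (n = 4), AC 4 h (n = 4), Luc 24 h (n = 3), AC 24 h (n = 3), Luc 48 h (n = 4) and AC 48 h (n = 4), and the labels do not spell AC out. In every infarct group the left anterior descending artery had been tied off for good, and no injected sham group was used here. The only gene called between AC and Luc at 4 h was Asah1, which encodes acid ceramidase, at a log2 difference of 8.20 ± 0.29 (SE, limma adjusted p = 6.16e-15), and it was also the only one at 24 h (2.93 ± 0.34, adjusted p = 1.60e-04).

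Most ribosomal proteins are needed in near-equal numbers, and ribosome production is among the largest costs of a growing cell. Many of their mRNAs begin with a C and a run of pyrimidines, the 5′ terminal oligopyrimidine (TOP) motif, through which the mTORC1 kinase pathway and the RNA-binding protein Larp1 control their translation, and the transcription factor Myc raises both their transcription and that of the factors that assemble ribosomes. Striated muscle also uses Rpl3l, a paralog that can take the place of Rpl3 in the ribosome.

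The start sites of 5 members are shown because they carry the shared element or lack it. Each line is 25 bases of the RefSeq promoter sequence in GRCm38.p6, 5′ to 3′ on the gene's strand, 10 of them before the annotated start, and capitals mark a run of at least 5 pyrimidines that begins, with a C, within 5 bases of that start. Rps6 lies at chr4:86857353-86857377 on the minus strand, Rps27 at chr3:90213634-90213658 on the minus strand, Rpl12 at chr2:32961702-32961726 on the plus strand, Rpl22l1 at chr3:28805498-28805522 on the plus strand and the upstream start of Rpl3l at chr17:24727816-24727840 on the plus strand.
Rps6: gaagtcgggCCTCTTTTTCgtgacg
Rps27: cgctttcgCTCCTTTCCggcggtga
Rpl12: agcaggatccgtCTTTTCggctttc
Rpl22l1: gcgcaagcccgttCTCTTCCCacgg
Rpl3l: ttctagctctgtcatttgacctctg
Of the 63 members with an annotated start in that table, 14 (22.22%) began with such a run at the start itself and 30 (47.62%) held one within 5 bases. Over the 27025 genes of the table the shares were 3.008% and 21.16%. The run at the exact start was found in 0 of 45 genes of ribosome assembly. A match is a string of letters at an annotated start, and no match says only that these letters were not in this window.

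Transcripts of the members were abundant in every library. Their mean level had a median of 104 CPM over the 82 members in the 10-library table and 132 CPM in the 24-library table, and Rplp0, the base of the ribosomal stalk, was highest with 532 and 549 CPM. By mean CPM, without correction for length, the median member stood at the 92.4th and 93.8th percentile of all genes tested. The lowest members inside the filter were Rpl34 (1.77 CPM), Rps2 (2.52), Rps4l (2.61) and Rpl30 (4.15) in the 10-library table, and Rps2 (1.05), Rpl34 (1.39), Rps4l (4.24) and Rpl30 (5.25) in the 24-library table. Rpl29 (0.302 and 0.167 CPM) and, in the 24-library table, Rpl39l (0.0638 CPM) fell below it. Ribosomal protein genes have many processed copies in the genome. A transcript sequence was at hand for 82 of the 84 genes, Rpl29 and Rpl39l included and Rpl32l and Rps4l not. Of these 82, 48 shared at least 50% of their 50-base windows, the read length, with transcripts of other genes. For Rps2 the share was 79.0% and for Rpl29 66.8%, so the levels of such members depend on how reads were divided between copies. No window of Rpl3l was shared, and 85.6% of those of Rpl3 were.

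The summed share of the members in the library, their CPM over the CPM of all genes, rose from sham to MI 24 h in the 10-library table. The 3 sham libraries held 1.18, 1.06 and 1.12%, the 3 MI 4 h libraries 1.32, 1.30 and 1.29%, and the 4 MI 24 h libraries 2.70, 2.41, 2.00 and 2.81%. The 3 groups did not overlap, and the means were 1.12 ± 0.06% (SD, n = 3), 1.31 ± 0.014% (n = 3) and 2.48 ± 0.363% (n = 4). The small and the large subunit moved in step, with a ratio of small to large between 0.662 and 0.708 in the 10 libraries. In the 24-library table the 2 sham libraries lay far apart, at 1.99 and 1.29%, and the Luc 4 h (1.91 ± 0.157%, n = 4), AC 4 h (1.95 ± 0.419%, n = 4), Luc 24 h (1.73 ± 0.174%, n = 3) and AC 24 h (1.71 ± 0.143%, n = 3) groups lay between or about them. Luc 48 h was at 2.25 ± 0.244% (n = 4) and AC 48 h at 2.79 ± 0.665% (n = 4), where the highest library, AC 48 h replicate 1, held 3.71%. In bulk tissue, more cells of a type rich in these mRNAs and more of the mRNAs per cell cannot be told apart.

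**Figure D1:**
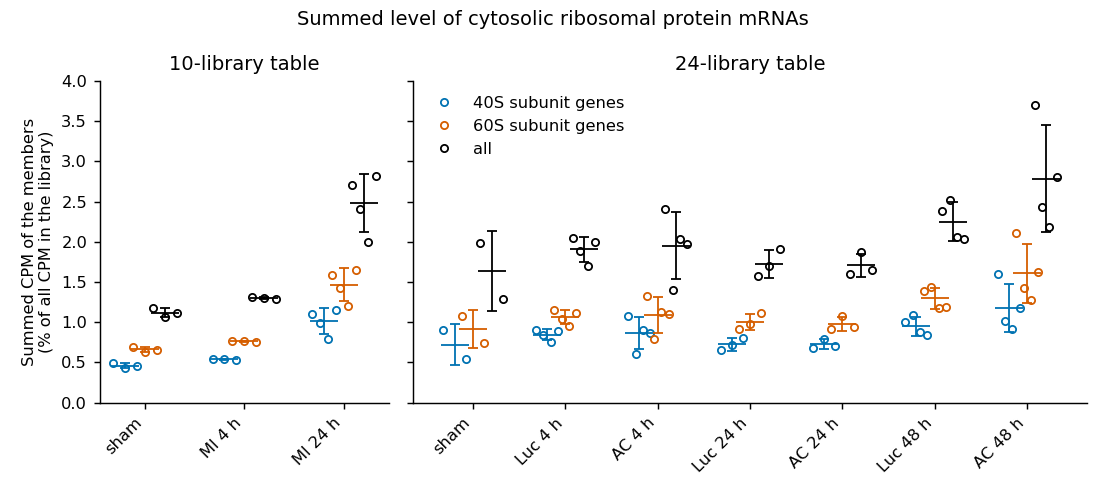
Summed share of all members (black), of the small subunit (40S, blue) and of the large subunit (60S, orange) in each library, as a percent of the CPM of all genes, by group and table. Points are libraries and bars are the group mean with its SD, and in the left panel the MI 24 h libraries lie at 2.00 to 2.81%, above all sham (1.06 to 1.18%) and MI 4 h (1.29 to 1.32%) libraries, and in the right panel the 2 sham libraries, at 1.29 and 1.99%, span most of the 4 h and 24 h libraries.

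At 24 h post-MI nearly the whole set was higher than in sham. Of 82 members, 80 rose and 1 fell in limma (Benjamini-Hochberg adjusted over 12487 genes), against 35.6% of all genes tested called higher and 30.3% called lower. The median log2 difference of the members was 1.20, with the middle 50% between 1.04 and 1.29, and that of all genes was 0.04. In the small subunit 32 of 33 rose (median 1.19), and in the large subunit 48 of 49 (median 1.20). The count stayed at 81 whichever library was dropped.

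The stalk proteins, which recruit the elongation factors, rose with the rest. Rplp0 had 403, 315 and 303 CPM in sham and 782, 738, 696 and 864 CPM at MI 24 h, a 2.26-fold difference of means (log2 1.18 ± 0.13 SE, adjusted p = 1.08e-05). Rplp1 (2.51-fold) and Rplp2 (2.02-fold) rose as well, and none of the 3 genes overlapped between the groups. The share of all genes without overlap between these groups was not counted. Rpl12, which sits at the base of the stalk, was among the members that rose most. It had 47.4, 43.9 and 44.7 CPM in sham and 149, 152, 124 and 182 CPM at MI 24 h (log2 1.71 ± 0.12, adjusted p = 6.35e-07).

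Members with known roles beyond the ribosome core moved by like amounts. Rps6, the substrate of S6 kinase, had 178, 142 and 157 CPM in sham and 391, 382, 344 and 446 CPM at MI 24 h (log2 1.29 ± 0.11, adjusted p = 2.70e-06), with every MI 24 h library above every sham library. Rpl5 and Rpl11, which bind Mdm2 when free of ribosomes, rose 2.34- and 2.36-fold. Rps19 and Rpl35a, genes of Diamond-Blackfan anaemia, rose 2.60- and 2.48-fold, and Rpl13a, part of the interferon-gamma-activated GAIT complex, rose 2.92-fold. Rpsa, also known as the laminin receptor, rose 2.32-fold, and Rps25 (2.44-fold), Rpl10a (2.45-fold), Rpl38 (2.51-fold), Rpl10 (2.38-fold), Rpl39 (2.33-fold) and Rpl36 (2.43-fold) lay in the same range. The smallest rises that passed the test were those of Rps29 (log2 0.60), Rpl28 (0.68), Rps4x (0.71) and Rpl22 (0.72), and these 4 were picked after their values were seen.

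**Figure D2:**
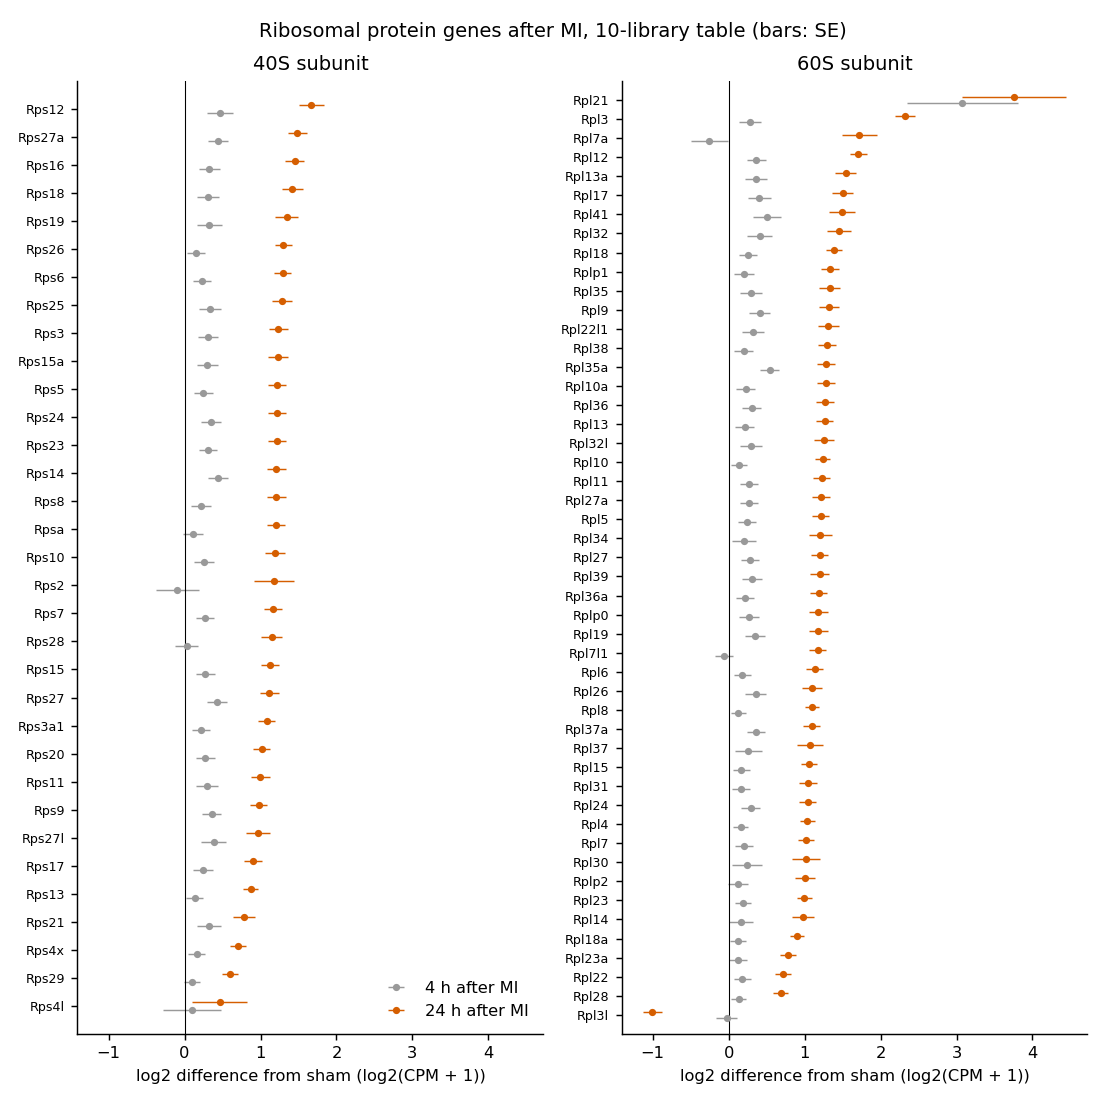
Log2 difference from sham of each of the 82 members at 4 h (grey) and 24 h (orange) after MI in the 10-library table, with bars for the SE, for the small (40S, left) and large (60S, right) subunit. The 24 h points gather about the median of 1.20 with Rpl3l alone below 0, and most 4 h points about 0.26. Rpl21 lies far above the rest at both times (3.08 at 4 h and 3.76 at 24 h).

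Rpl3 and Rpl3l moved in opposite directions. Rpl3, the common form, had 64.8, 47.8 and 61.0 CPM in sham, 70.2, 68.2 and 71.9 CPM at MI 4 h, and 277, 264, 274 and 360 CPM at MI 24 h. Rpl3l, the form of striated muscle, had 169, 221 and 190 CPM in sham, 166, 202 and 203 CPM at MI 4 h, and 82.1, 98.1, 109 and 95.1 CPM at MI 24 h. All MI 24 h libraries lay above sham for Rpl3 and below sham for Rpl3l. The difference from sham was 2.32 ± 0.13 on the log2 scale for Rpl3 (5.08-fold, adjusted p = 2.20e-07), and Rpl3l fell by 1.003 ± 0.128 (0.496-fold, adjusted p = 4.12e-05). Per kilobase of transcript, Rpl3l stood at 187 and Rpl3 at 42.8 CPM in sham, and at 92.9 and 217 CPM at MI 24 h. These values depend on the 1 transcript chosen per gene, of 1033 bases for Rpl3l and 1351 for Rpl3. The ratio of Rpl3l to Rpl3, in CPM, was 3.45 ± 1.04 in sham (SD, n = 3), 2.71 ± 0.313 at MI 4 h (n = 3) and 0.332 ± 0.0621 at MI 24 h (n = 4). For MI 24 h against sham a two-sided exact permutation test gave p = 0.0571, the smallest it can give with 4 against 3 libraries (adjusted p = 0.309 over the 27 ratio tests made).

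Cardiomyocyte markers fell over the same interval. The 8 markers summed to 55609 to 59802 CPM in sham and 20813 to 36458 CPM at MI 24 h, with 5 lower and 0 higher in limma, and Myh6, the main myosin heavy chain of the mouse ventricle, fell by 1.77 ± 0.27 on the log2 scale. Neutrophil and monocyte markers summed to 67.0 to 128 CPM in sham and 615 to 2522 CPM at MI 24 h, with 10 of 10 higher. No marker of either list was at 0 in any group, and the part of these shifts in the changes of Rpl3l, Rpl3 and the other members was not tested. Of the other lists, 1 of 8 fibroblast markers rose and 3 fell, 1 of 6 endothelial markers rose and 3 fell, 0 of 5 erythroid markers changed, 1 of 3 markers of proliferating cells tested fell, 1 of 2 atrial markers tested rose and the 1 lymphocyte marker tested rose.

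The other paralog pairs differed less. Rpl22l1 rose more than Rpl22 at MI 24 h (2.65- against 1.66-fold), and the ratio of Rpl22l1 to Rpl22 went from 0.149 ± 0.00319 in sham (SD, n = 3) to 0.237 ± 0.0162 (n = 4), without overlap (exact permutation p = 0.0571, the smallest possible, adjusted p = 0.309). Rps27l, a p53 target, and Rps27 rose 1.98- and 2.21-fold, and their ratio was 0.696 ± 0.0725 in sham and 0.634 ± 0.0559 at MI 24 h, with overlapping groups. Rpl7 and Rpl7l1 rose 2.04- and 2.30-fold. Rpl39l was not tested in either table and Rpl10l had no value here.

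**Figure D3:**
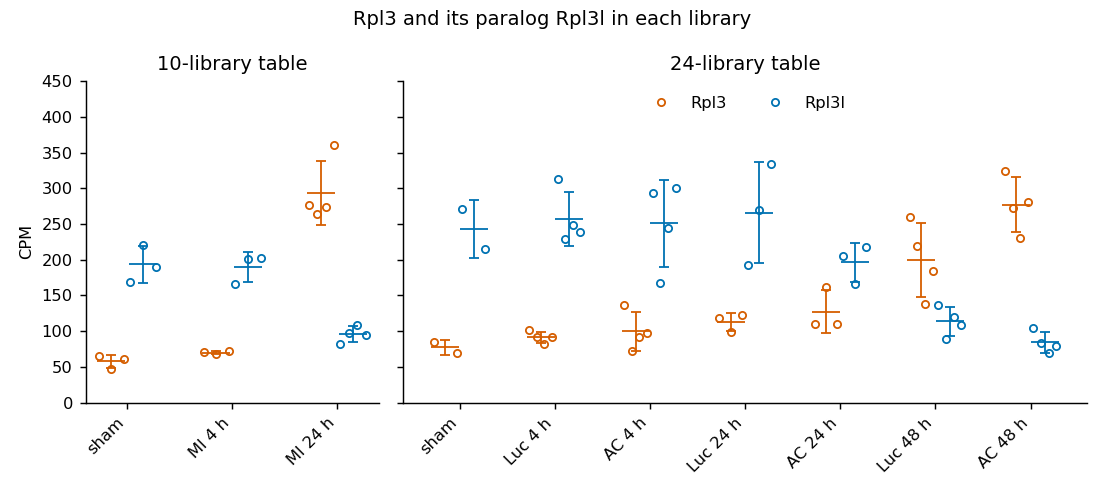
CPM of Rpl3 and Rpl3l in each library by group, in the 10-library table (left) and the 24-library table (right), each point a library and bars the group mean with its SD. Rpl3l lies above Rpl3 in the sham and 4 h groups of both tables, and in all Luc 24 h and AC 24 h libraries of the right panel. Rpl3 lies above Rpl3l in all 4 MI 24 h libraries of the left panel and in all Luc 48 h and AC 48 h libraries of the right panel.

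A few members had values of their own. Rpl21 had the largest difference at MI 24 h (log2 3.76 ± 0.69, adjusted p = 5.37e-04), and its sham libraries held 18.2, 0.645 and 0.942 CPM against 62.9, 61.5, 52.9 and 36.8 CPM. The sham libraries thus differed among themselves, and Rpl21 shares windows with 82 other genes. Rpl7a, which shares 81.2% of its windows with 123 genes, had 34.1, 16.1 and 15.6 CPM in sham, 17.0, 15.1 and 19.2 CPM at MI 4 h and 65.6, 61.3, 85.3 and 69.2 CPM at MI 24 h (log2 1.72 ± 0.23, adjusted p = 6.13e-05). Rps4l, with 1.09 to 2.93 CPM in sham and 1.71 to 5.19 CPM at MI 24 h, was the member that did not pass the test in either direction (log2 0.46 ± 0.36, adjusted p = 0.274). The 12 rows that the rule leaves out, pseudogenes, retrogenes and Fau among them, were all called higher, with a median of 1.13, and Fau had a log2 difference of 1.47.

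At MI 24 h members with and without the pyrimidine run changed by like amounts. The median log2 difference at MI 24 h was 1.21 over the 14 members with a run at the start, 1.22 over the 16 with a run nearby and 1.18 over the 32 tested members without one. These 3 groups spanned 0.68 to 1.42, 0.97 to 1.72 and −1.003 to 1.67. Against sham in the 24-library table, their medians were 0.41, 0.35 and 0.36 at Luc 4 h and 0.50, 0.35 and 0.42 at Luc 24 h. At Luc 48 h they were 0.41, 0.40 and 0.17, with overlapping ranges. The members lie on 19 chromosomes. Rps2 and Rpl3l are neighbours, 5901 bases apart on chr17 (GENCODE M21, GRCm38), and Rps2 rose (log2 1.18 ± 0.26) where Rpl3l fell.

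Genes that make and control ribosomes moved at MI 24 h too. Of 52 genes of ribosome biogenesis, 48 rose and 0 fell, with a median log2 difference of 1.23. Rrp12, a pre-ribosome export factor, had 12.04 CPM in sham and 96.0 CPM at MI 24 h (log2 2.91 ± 0.18), and Gnl3, the nucleolar protein nucleostemin, had 13.2 and 80.8 CPM (log2 2.53 ± 0.12). Polr1a, the largest subunit of RNA polymerase I, did not pass the test (log2 −0.15 ± 0.22, adjusted p = 0.567). Of 15 non-ribosomal TOP mRNAs, 10 rose and 0 fell with a median of 0.57, among them Pabpc1, the poly(A)-binding protein (1.93), the elongation factor Eef1a1 (1.56) and Rack1, a protein of the small subunit (1.18). Of 78 mitochondrial ribosomal proteins, 31 fell and 8 rose, with a median of −0.25.

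Among 15 regulators of ribosome production, 8 rose and 3 fell. Myc went from 1.89 CPM in sham to 57.0 CPM at MI 24 h (log2 4.32 ± 0.15), Eif4ebp1, the translation repressor phosphorylated by mTORC1, rose by 2.10 and Sesn2, an mTORC1 inhibitor, by 2.10. Larp1 rose by 0.60 and Trp53 by 1.21. Tsc1 and Tsc2, which together hold mTORC1 in check, fell by 0.64 and 0.93, and Deptor, another inhibitor, fell by 1.47. The log2 differences of Mtor (−0.39, adjusted p = 0.0539) and Rptor (−0.32, adjusted p = 0.0675) did not pass the test.

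At 4 h post-MI most differences from sham were small and few members were called. The largest was that of Rpl21 (log2 3.08), which was not called. It had 39.7, 19.8 and 42.6 CPM at MI 4 h against 18.2, 0.645 and 0.942 CPM in sham. Only Rpl35a was called higher (48.6, 44.97 and 41.3 CPM in sham and 70.5, 60.9 and 66.2 CPM at MI 4 h, log2 0.54 ± 0.13, adjusted p = 0.0499) and 0 members were called lower, against 1.55% of all genes called higher and 0.817% called lower. The call of Rpl35a was lost with 8 of the 10 libraries left out singly, and the count became 4 without sham replicate D and 3 without MI 24 h replicate G. Still, 78 of 82 members were above sham, with a median log2 difference of 0.26 where that of all genes was −0.03, and 29 members had an unadjusted p under 0.05, as did 2058 of the 12487 genes. Over the same interval Myc had risen (log2 2.76 ± 0.16, adjusted p = 2.99e-06), Ddit4, an mTORC1 inhibitor, had risen (1.46 ± 0.31, adjusted p = 0.0339), and 0 of 52 biogenesis genes, 0 of 15 other TOP mRNAs and 0 of 78 mitochondrial ribosomal proteins had changed. Erythroid markers were higher in 4 of 5.

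Between 4 h and 24 h post-MI, 79 members rose and Rpl3l fell, against 37.2% of all genes called higher and 26.7% called lower, with a median of 0.92 for the members and 0.10 for all genes. Rpl21 (log2 0.68 ± 0.69, adjusted p = 0.401) and Rps4l (0.37 ± 0.36, adjusted p = 0.394) did not pass the test. This comparison shares its libraries with the preceding ones. The biogenesis genes did likewise (47 of 52 higher, 0 lower), and 43 of 78 mitochondrial ribosomal proteins were lower.

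In the injected hearts the members changed less and less evenly, and the comparison rests on the 2 sham libraries that stood apart. At Luc 4 h against sham, 0 of 82 members passed the test in limma, against 1.25% of all genes called higher and 0.295% called lower. A total of 80 of 82 were above sham, with a median log2 difference of 0.42 (0.02 for all genes). Of the members, 23 had an unadjusted p under 0.05, as did 1710 of the 12555 genes. The smallest adjusted p was that of Rps4l (1.25 ± 0.33, adjusted p = 0.0536). With the sham and Luc 4 h libraries fitted alone, 5 members were called, and 1 was called without Luc 4 h replicate 3, AC 4 h replicate 4, Luc 24 h replicate A, AC 24 h replicate c, Luc 48 h replicate 3 or AC 48 h replicate 1. The median was 0.05 without sham replicate 2 and 0.72 without sham replicate 1.

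At Luc 24 h against sham, 21 members rose and 0 fell, that is 25.6% of the members called higher beside 25.3% of all genes, with 8.79% of all genes called lower. The members' share was thus at the background. The median was 0.46 for the members and 0.16 for all genes. Rplp1 had 20.1 and 40.7 CPM in sham and 152, 147 and 206 CPM at Luc 24 h (log2 2.50 ± 0.43, adjusted p = 1.63e-04), Rpl36 had 11.0 and 13.2 CPM and then 53.4, 51.7 and 77.7 CPM (2.22 ± 0.43), and Rplp2 had 10.1 and 10.2 CPM and then 43.7, 35.7 and 57.1 CPM (2.04 ± 0.39). Rplp0 (1.06 ± 0.24) was called as well, and Rps6, with 429 and 229 CPM in sham and 340, 360 and 433 CPM at Luc 24 h, was not (0.26 ± 0.27, adjusted p = 0.483). The count was 12 (10 higher, 2 lower) without sham replicate 2, 13 without Luc 24 h replicate D and 32 without AC 4 h replicate 2. With libraries scaled to equal sums over the other genes it was 16 higher and 2 lower. All genes then split into 1843 higher and 2477 lower in place of 3172 and 1103. The median was 0.18 without sham replicate 2, 0.78 without sham replicate 1 and 0.16 with equal sums. With equal sums the median of all genes fell as well, to −0.11. The log2 difference of Rps6 was −0.19 without sham replicate 2 and 0.71 without sham replicate 1.

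At Luc 48 h against sham, 18 members rose and Rpl3l fell, against 13.7% of all genes called higher and 16.4% called lower. The median was 0.34 for the members and −0.03 for all genes. Rplp1 (163, 123, 130 and 183 CPM, log2 2.32 ± 0.41), Rplp2 (42.4, 26.1, 28.3 and 36.4 CPM, 1.59 ± 0.37) and Rpl36 (45.6, 27.5, 38.0 and 43.4 CPM, 1.58 ± 0.41) again had the largest rises among members of at least 10 CPM. Without sham replicate 2 the count was 11 (9 higher, 2 lower) and the median 0.01, and without AC 4 h replicate 2 the count was 31 (29 higher, 2 lower). The median was 0.67 without sham replicate 1. Scaled to equal sums over the other genes, 35 rose and 1 fell. All genes then split into 2574 higher and 1251 lower in place of 1714 and 2060.

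Rpl3 and Rpl3l moved apart in these hearts at 48 h. Rpl3 had 84.3 and 70.1 CPM in sham and 259, 219, 138 and 184 CPM at Luc 48 h (log2 1.33 ± 0.23, adjusted p = 2.12e-04), and Rpl3l had 272 and 215 CPM and then 137, 89.2, 120 and 109 CPM (−1.10 ± 0.23, adjusted p = 0.00136). Neither passed the test at Luc 4 h or Luc 24 h. Their ratio was 3.14 ± 0.112 in sham (SD, n = 2), 2.80 ± 0.296 at Luc 4 h, 2.37 ± 0.632 at Luc 24 h and 0.599 ± 0.197 at Luc 48 h, where the exact permutation test gave p = 0.133 against sham, the smallest that 4 against 2 libraries allow. Cardiomyocyte markers summed to 59683 to 61714 CPM in sham and 37974 to 50814 CPM at Luc 48 h (3 of 8 lower, 0 higher). Neutrophil and monocyte markers summed to 87.8 to 167 and 282 to 660 CPM in these groups (9 of 10 higher). At Luc 24 h the cardiomyocyte sums were 66866 to 82547 CPM (1 of 8 higher and 1 lower than sham). The neutrophil and monocyte sums were then 127 to 209 CPM (7 of 10 higher, 0 lower). The part of both lists in these results was not tested. The ratio of Rps27l to Rps27 was 0.422 ± 0.0809 in sham and 0.703 ± 0.0946 at Luc 48 h, without overlap (exact permutation p = 0.133).

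The spread among the members of the 24-library table went with the base composition of their transcripts. GC content in the 80 tested members with a transcript was 39.0 to 60.8% (median 50.7%). Over these, its Spearman correlation with the log2 difference from sham was 0.59, 0.75 and 0.63 at Luc 4 h, 24 h and 48 h. At MI 24 h in the other table the correlation was 0.16. These are descriptions across genes of the same libraries. At Luc 24 h the median was 0.71 in the 40 members richest in GC, of which 19 were called, and 0.18 in the other 40, of which 1 was called. At MI 24 h the medians were 1.21 and 1.18, with all 40 called in each. Within a library, the correlation of other genes' deviations with GC content ranged from −0.06 to 0.06 in the 10-library table and from −0.47, in sham replicate 1, to 0.44, in Luc 24 h replicate D, in the 24-library table. Whether the times were sequenced together is not given in the sources used here, and a run and the time cannot be told apart. Subtracting a smooth trend on GC, an adjustment chosen after the data were seen, left 9 members higher at Luc 24 h and 26 higher and 1 lower at Luc 48 h, and at MI 24 h 79 higher and 1 lower of 80.

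**Figure D4:**
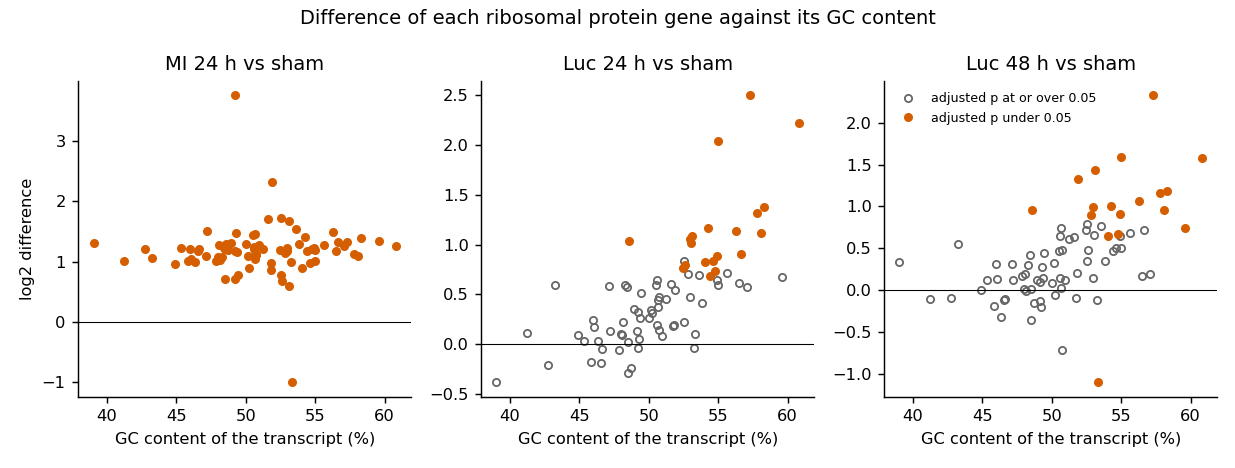
Log2 difference of each of 80 members from sham against the GC content of its transcript (percent), for MI 24 h (10-library table) and for Luc 24 h and Luc 48 h (24-library table), each point a member and filled where the adjusted p was under 0.05. The MI 24 h points are level across GC (Spearman 0.16), and the Luc 24 h (0.75) and Luc 48 h (0.63) points climb with it.

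Ribosome genes outside the set moved as follows in the Luc groups. Of 52 biogenesis genes, 1 rose at Luc 4 h, 28 rose and 1 fell at Luc 24 h, and 7 rose and 1 fell at Luc 48 h, with medians of −0.07, 0.54 and 0.09. Of 15 other TOP mRNAs, 0, 3 and 4 rose and 0 fell. Mitochondrial ribosomal proteins changed in 0 of 78 at Luc 4 h, rose in 2 and fell in 3 at Luc 24 h, and fell in 24 at Luc 48 h. Of the 15 regulators 1, 5 and 1 rose, and 1 fell at Luc 48 h. Atrial markers were higher in 4 of 4 at Luc 24 h and 3 of 4 at Luc 48 h, with sums of 60.7 to 117 CPM in sham and 362 to 603 CPM at Luc 24 h, and their part in the members' values was not tested.

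No member was called between AC and Luc hearts. In limma 0 of 82 members passed the test at 4 h, 24 h or 48 h, where 0.00796% of all genes were called higher and 0% lower at 4 h, the same shares at 24 h, and 12.1% higher and 3.27% lower at 48 h. An unadjusted p under 0.05 was found for 1, 2 and 2 of the 82 members, beside 131, 599 and 3808 of the 12555 genes. At 48 h weighting the libraries by their quality called 5 members, and the count over all genes under that weighting is not given here. The median log2 difference was 0.08 at 4 h, −0.11 at 24 h and 0.21 at 48 h, beside 0.01, −0.03 and 0.14 for all genes. Single libraries moved these medians. At 4 h the median was −0.10 without AC 4 h replicate 1, 0.01 without Luc 4 h replicate 3, 0.16 without Luc 4 h replicate 1 and 0.29 without AC 4 h replicate 2. At 24 h it was 0.01 without Luc 24 h replicate D and −0.17 without Luc 24 h replicate A. At 48 h it was 0.05 without AC 48 h replicate 1, 0.13 without Luc 48 h replicate 4, 0.32 without Luc 48 h replicate 1 and 0.33 without AC 48 h replicate 4.

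Rpl3 and Rpl3l at 48 h and the stalk genes Rplp1 and Rplp2 at 24 h were the members with an unadjusted p under 0.05 at those times. Rpl3 had 324, 273, 230 and 281 CPM in AC 48 h against 259, 219, 138 and 184 CPM in Luc 48 h, a log2 difference of 0.50 (95% interval 0.11 to 0.88, adjusted p = 0.0759), and it was called without Luc 48 h replicate 1 (0.63) or AC 4 h replicate 1 (0.50). Rpl3l had 105, 83.2, 70.2 and 79.4 CPM against 137, 89.2, 120 and 109 CPM, a log2 difference of −0.42 (−0.82 to −0.03, adjusted p = 0.139). Both genes overlapped between the groups. Their ratio did not, at 0.304 ± 0.0171 in AC 48 h and 0.599 ± 0.197 in Luc 48 h (SD, n = 4 each), with exact permutation p = 0.0286, the smallest possible, and adjusted p = 0.309 over the 27 ratio tests. Rplp1 had 69.3, 94.9 and 96.3 CPM in AC 24 h against 152, 147 and 206 CPM in Luc 24 h (log2 −0.95, 95% interval −1.75 to −0.15, adjusted p = 0.991), and Rplp2 19.2, 27.9 and 24.4 against 43.7, 35.7 and 57.1 CPM (−0.90, −1.62 to −0.17, adjusted p = 0.969). Their groups did not overlap, but both genes were picked here by their unadjusted p. The share of all genes without overlap was not counted. The correlation of the members' log2 differences with GC content in this comparison was −0.64.

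**Figure D5:**
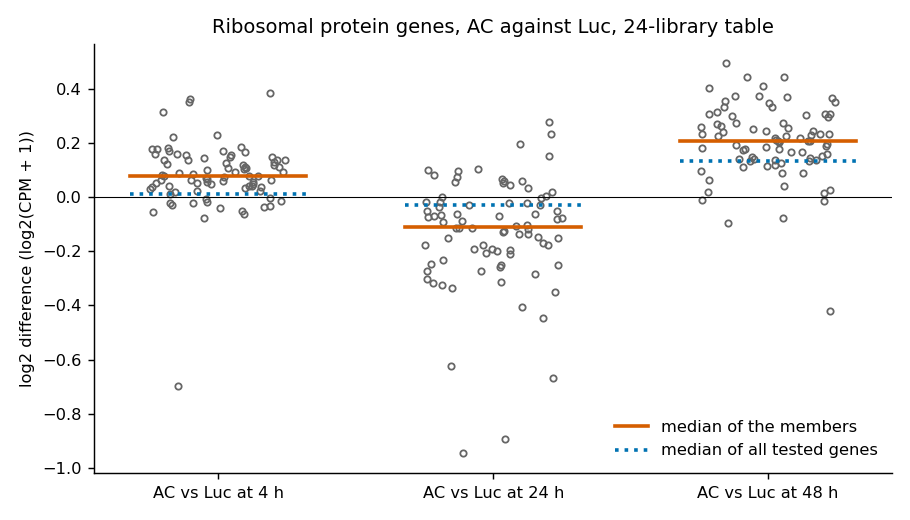
Log2 difference between AC and Luc hearts for each of the 82 members at 4, 24 and 48 h, each point a member, with the median of the members (solid) and of all genes (dotted). No point passed the adjusted p threshold, and the members' medians are 0.08, −0.11 and 0.21 against 0.01, −0.03 and 0.14.

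The intervals show what size of effect these groups could still hide. For Rps6 the difference between AC and Luc was 0.02 at 4 h, −0.00 at 24 h and 0.15 at 48 h, with standard errors of 0.21, 0.24 and 0.21. The AC effect did not differ between times for any member in limma (0 of 82 in each of 3 tests). For 24 h minus 4 h, 0% of all genes were called higher and 0.00796% lower, for 48 h minus 4 h 2.88% and 0.47%, and for 48 h minus 24 h 2.23% and 0.335%. The smallest adjusted p of a member was that of Rplp1 for 48 h minus 24 h (1.31 ± 0.51, adjusted p = 0.187). In the 3 tests 2, 0 and 4 members had an unadjusted p under 0.05, beside 379, 2349 and 2134 of the 12555 genes.

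Some other lists set AC 48 h apart from Luc 48 h where the members did not pass the test. Fibroblast markers were higher in 6 of 8 (953 to 1812 CPM in Luc 48 h and 2290 to 3906 CPM in AC 48 h), and markers of proliferating cells in 5 of 5 (6.93 to 43.9 and 84.0 to 107 CPM). Cardiomyocyte markers were lower in 3 of 8 (28924 to 34210 CPM in AC 48 h), neutrophil and monocyte markers were higher in 3 and lower in 1 of 10, and 1 of 4 atrial markers was higher. Of the biogenesis genes 4 of 52 rose, of the other TOP mRNAs 3 of 15, of the 15 regulators 1 rose and 1 fell, and of the mitochondrial ribosomal proteins 0 of 78 changed. Of all genes 12.1% were called higher and 3.27% lower. The biogenesis genes and the mitochondrial ribosomal proteins thus did not exceed that background. With libraries rescaled by the median ratio, 1 member, Rpl3l, was called lower in AC 48 h, all genes split into 845 higher and 774 lower in place of 1516 and 410, and the members' median was 0.07.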

How the data were processed

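RNA from mouse LV was sequenced as single 50-base reads (TruSeq Stranded mRNA per the labels). For the 10 libraries, the authors used STAR to align to mm10, assigned reads to RefSeq genes by expectation-maximization in Partek and normalized by TMM. The deposited values are CPM. For the 24 libraries the labels name mm10, and the other steps are not given in the sources used here. Their deposited CPM carry an added 1, which was subtracted. Library sums were 568058 to 662286 CPM (10 libraries) and 508204 to 818456 CPM (24 libraries). The sum over the smallest value gave about 12600000 to 19000000 reads in the 10 libraries, where 82.1 to 85.1% of low values were whole multiples of it (within 0.02), too few to recover reads for a count test. Depth in the 24-library table is unknown. Rn45s, precursor ribosomal RNA, took 6881 to 40038 and 8.67 to 88.1 CPM.

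Groups came from the labels. The tables were normalized separately and fitted separately with limma 3.58.1 (R 4.3.3, lmFit and eBayes with trend) on log2(CPM + 1), for genes whose mean reached 1 CPM, with Benjamini-Hochberg adjustment over all genes and a threshold of 0.05. Log2 differences are on this scale, which understates changes of low genes, and folds are ratios of mean CPM. Nothing in the labels says that libraries are separate mice, so p-values measure the spread between these samples. Ratios of paralogs were tested by two-sided exact permutation. Named members were a set of stalk, regulatory and paralog genes plus, in each comparison, the 3 with the largest change in each direction among those called with at least 10 CPM. The members and gene lists were chosen with earlier results of these data known. GC content and transcript length came from the shortest RefSeq-paired transcript in GENCODE M21, which need not be the main form in the heart. The scripts were tested on simulated data. Alternatives covered the pseudocount, filters, trend, weights, scaling, the groups fitted, a replicate block and each library left out, and a GC adjustment and a wider set of rows were added after the data were seen. AC was compared with Luc at equal times, and every Luc group (4, 24 and 48 h) with the sham libraries taken at 4 h.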

Additional observations from a re-analysis of the deposited data

Results flagged for a closer look

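A library apart from the other 3 of its group (Dixon's test on 165 groups of 4, where chance gives about 1 in 20) was found 5 times among the named members. Rpl3 had 360.2 CPM in MI 24 h replicate H, where the others had 264 to 277 CPM, and Rps4l had 2.37 CPM in Luc 4 h replicate 3, where the others had 4.16 to 4.38 CPM. AC 4 h replicate 1 had 101.8 CPM of Rpl21 (others 24.8 to 37.7 CPM) and 128.8 CPM of Rpl7a (others 63.0 to 68.5 CPM). AC 48 h replicate 1 had 197 CPM of Rpl35a (others 110 to 123 CPM).

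The change from sham differed between 4 h and 24 h post-MI for 80 members, by the limma test of MI 24 h against MI 4 h. In that test 37.2% of all genes were called higher and 26.7% lower, and 27 named members were called. Rpl12 and Rpl7a were named for the size of their change in this same test, so their calls in it were given in advance. On the log2 scale the difference was 0.92 for Rplp0, 1.13 for Rplp1, 0.88 for Rplp2 and 1.34 for Rpl12 of the stalk and its base. It was 1.09 for Rpsa, 1.06 for Rps6, 1.02 for Rps19, 0.94 for Rps25 and 0.55 for Rps4x in the small subunit. In the large subunit it was 0.97 for Rpl5, 0.95 for Rpl11, 1.18 for Rpl13a, 1.06 for Rpl10a, 1.10 for Rpl38, 1.10 for Rpl10, 0.89 for Rpl39, 0.74 for Rpl35a, 1.97 for Rpl7a and 0.97 for Rpl36. In the paralog pairs it was 2.04 for Rpl3 and −0.98 for Rpl3l, 0.54 for Rpl22 and 0.99 for Rpl22l1, 0.69 for Rps27 and 0.58 for Rps27l, and 0.81 for Rpl7 and 1.24 for Rpl7l1. Rpl3l was the only one of the 27 to fall.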

How the results depend on the processing

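The counts at MI 24 h against sham (81 without any 1 library) and MI 24 h against MI 4 h (79 to 81) stayed within 1.5 times of the main count under every alternative run. No called difference of a named member changed sign, but values that were not called did: with a library left out, the members' median for AC against Luc ran from −0.10 to 0.29 at 4 h and from −0.17 to 0.01 at 24 h. Of 9049 checks of single named members, 8953 kept their call, 69 gained and 27 lost it. The call at MI 4 h was lost (0) with no filter, a mean of at least 10 CPM, no trend, equal sums or a replicate block, became 46 with array weights and 4 with the compared groups alone, and ranged from 0 to 4 with a library left out. Luc 4 h against sham (0) became 1 with a pseudocount of 0.1 and 5 with the compared groups alone, and ranged from 0 to 1. Luc 24 h (21) became 9 with the GC adjustment and ranged from 12 to 32. Luc 48 h (19) became 36 with equal sums and 32 with a replicate block, and ranged from 11 to 31. AC against Luc at 48 h (0) became 5 with array weights, 1 (lower) with median-ratio scaling, 2 with equal sums and 1 (lower) with the GC adjustment, and ranged from 0 to 1. The AC effect for 48 h minus 24 h became 1 with array weights. The cause of these shifts was not tested. With equal sums all genes moved too, to 2218 higher and 417 lower for AC against Luc at 48 h. For array weights, the replicate block and the compared groups alone, counts over all genes are not given here. The member counts under those settings lack that background. Median-ratio scaling moved the median of all genes from 0.16 to −0.01 at Luc 24 h and from 0.14 to 0.01 for AC against Luc at 48 h, and left 17 members called at Luc 24 h.

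Without Rn45s and the 10 highest other genes in the denominator, the summed share was 1.33% (sham, 10 libraries), 1.55% (MI 4 h), 2.20% (Luc 4 h), 2.00% (Luc 24 h), 1.96% (AC 24 h) and 2.52% (Luc 48 h), and with the rows the rule leaves out 1.24% (sham, 10 libraries), 1.44% (MI 4 h), 2.09% (Luc 4 h) and 1.87% (AC 24 h). The deviations of libraries with the same replicate number or letter correlated at −0.06 to 0.34 in the 10-library table and −0.26 to 0.55 in the 24-library table, with all 10 pairs of replicate 1 in the latter above 0. Since not every pair was above 0.1, the numbers were not taken to pair the samples. The replicate block moved the counts to 0 at MI 4 h and 32 at Luc 48 h, and no block could be fitted at Luc 24 h against sham, whose labels share no number. The 2 sham libraries of the 24-library table and its unknown depth limit every comparison with them.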
